A study of Mus musculus with 2 samples.

Results

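The genes described here are the 86 annotated genes, of 32285 features in the deposited matrices, whose symbols mark them as cytosolic ribosomal protein genes: symbols starting with Rpl or Rps followed by a digit, together with Rplp0, Rplp1, Rplp2 and Rpsa, without processed copies and without the ribosomal S6 kinases. Their unique molecular identifiers (UMIs, 1 per captured transcript) were summed by library, by retinal cell class, and by the share of Malat1, a nuclear long noncoding RNA, in each barcode. By its title the study asked whether Müller cells, glia that span the retina, turn into retinal ganglion cells in vivo, and it held 2 single-cell libraries with 1 library per group. Both came from mice aged 14 weeks with the tm9(CAG-tdTomato)Hze allele of Gt(ROSA)26Sor on a B6.Cg background, in which tdTomato is made after Cre recombination, and cells were taken 8 weeks after an adeno-associated virus (AAV) had been injected and were sorted for tdTomato. Because the labels are Muller and MullerControl, the former was read as the test virus and the latter as its control. Of test cells about 4.9% and of control cells about 10% were reporter-positive, the sort collected 60000 and 120000 of them, and each library was loaded with 27000. What either virus carried, the promoter that drove it and the number of mice pooled are not given in the sources used here. With 1 library per group no test between groups was possible. Every interval below is a 95% interval for counting error alone, and PCR, mouse, injection and sort are not in it.

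A cytosolic ribosome is assembled from a large and a small subunit, each a scaffold of ribosomal RNA that carries proteins encoded by separate nuclear genes. The mRNAs of these proteins are among the most abundant of a cell, are translated in the cytoplasm, and typically begin with a run of pyrimidines, the terminal oligopyrimidine (TOP) motif, through which mTORC1 signalling controls their translation. Malat1 is held in the nucleus, so its share of a barcode's UMIs is a measure of how much nuclear RNA that barcode holds relative to the rest.

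The 86 symbols comprise proteins of the large subunit (Rpl), of the small subunit (Rps and Rpsa, the laminin receptor gene whose product sits in the small subunit) and of the large subunit's stalk (Rplp0, Rplp1 and Rplp2), which recruits translation factors. The rule also took in paralogs and 2 genes whose products are not standard ribosomal proteins, Rps19bp1, a nucleolar binding partner of Rps19, and Rpl7l1, a relative of Rpl7 that acts in ribosome assembly. Fau, which encodes a ubiquitin-like fusion to a ribosomal protein, carries another symbol and is given with the related lists. Of the 86 genes, 83 reached 100 UMIs over the gated classes of both libraries. The 3 others were the paralogs Rpl10l, with no UMI in any barcode, Rpl3l, with 1 UMI in Muller and 11 in MullerControl, and Rpl39l, with 8 and 4 UMIs. Counts of 0 allow up to 3 UMIs in a library.

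Start-site sequences are shown for 8 members that stood at the ends of the ratios reported below: Rps27, its near-identical copy Rps27rt, Rpl12 and Rps25 among the low ones, and Rpl18, Rpsa, Rpl7l1 and Rps19bp1 among the high ones. Each runs from 30 bases before to 20 bases from the annotated start (RefSeq, GRCm38.p6). Capitals mark the longest run of C and T that lies within 20 bases of the start on either side. Of equal runs only the first is marked: Rps27rt has a second run of 6 bases, which begins at the annotated start.
Rps27 (chr3:90213629-90213678, minus strand): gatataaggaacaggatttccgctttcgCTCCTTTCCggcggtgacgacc
Rps27rt (chr9:114982720-114982769, minus strand): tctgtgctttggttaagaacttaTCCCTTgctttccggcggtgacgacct
Rpl12 (chr2:32961682-32961731, plus strand): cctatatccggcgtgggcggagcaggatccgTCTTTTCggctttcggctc
Rps25 (chr9:44407684-44407733, plus strand): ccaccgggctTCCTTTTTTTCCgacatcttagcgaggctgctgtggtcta
Rpl18 (chr7:45718041-45718090, plus strand): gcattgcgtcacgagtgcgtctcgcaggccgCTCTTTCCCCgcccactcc
Rpsa (chr9:120127736-120127785, plus strand): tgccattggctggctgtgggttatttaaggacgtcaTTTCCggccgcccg
Rpl7l1 (chr17:46782637-46782686, minus strand): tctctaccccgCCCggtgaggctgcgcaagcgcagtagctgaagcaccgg
Rps19bp1 (chr15:80264287-80264336, minus strand): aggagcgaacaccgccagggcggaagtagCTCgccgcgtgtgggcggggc

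Runs in this window were 9 bases in Rps27, 6 in Rps27rt, 7 in Rpl12, 12 in Rps25, 10 in Rpl18 and 5 in Rpsa. They were only 3 in Rpl7l1 and Rps19bp1, the members that are not standard ribosomal proteins. The run of Rps25 lies wholly before the annotated start and continues upstream past the edge of the window. Of the 86 members, 66 had an entry in the promoter table, and 44 of these (66.7%) held a run of 6 or more C or T within this window. The same run was found in 11145 of 27025 genes of the table (41.2%). On the other strand, where the run reads as A and G, it was found in 13 members (19.7%) and in 43.8% of all genes. The match describes letters in the window and does not show where transcription began in these cells. In Müller barcodes the median log2 ratio of Muller over MullerControl was -0.38 over 43 measured members with the run and -0.24 over 20 without it, and the median log2 ratio between high and low Malat1 was -2.04 over 41 and -2.13 over 19.

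The libraries held 12316 and 11309 barcodes, here and below in the order Muller and MullerControl, with 25622379 and 23549118 UMIs, the median barcode having 1478 and 1552. After a filter on genes and mitochondrial UMIs and removal of likely doublets, 10757 and 9538 barcodes remained, and 40 barcode sequences occurred in both libraries. A barcode was placed in a class where its share of UMIs from that class's markers passed a gate and no other class's gate was passed. The gates gave 1028 and 635 Müller, 3923 and 6166 rod, 342 and 816 cone, 2589 and 761 bipolar, 733 and 200 amacrine and 93 and 142 microglia barcodes, and 2049 (19.05%) and 818 (8.58%) were in no class. The gates were set after the data were seen, and each class is a range of a score: 168 and 45 barcodes lay within 20% of the Müller gate on either side, 971 and 706 of the rod gate, 770 and 213 of the bipolar gate, 31 and 58 of the cone gate, 3 and 2 of the microglia gate, and 500 and 95 of the amacrine gate, many relative to the size of that class. Among the 10 genes with the highest fold in each class, 5 to 8 were its own markers and none was a marker of another class. In Müller barcodes, Müller markers made up a median of 2.58% and 3.62% of UMIs and rod markers 0.614% and 0.377%. Summed over those barcodes, the 11 rod markers stood at 5157 and 3506 counts per 1000000 UMIs (CPM), the 12 bipolar markers at 638 and 102 CPM, the 5 pigment epithelium markers at 149 and 597 CPM and the 7 vascular markers at 1899 and 2213 CPM. The part that RNA from other cells played in the levels below was not tested.

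Ribosomal protein genes took 4.31% of the kept UMIs of the Muller library and 5.48% of those of the MullerControl library, 954158 and 1094204 UMIs. The share differed widely between classes. Microglia, the resident immune cells of the retina, had the highest share in both libraries, 14.94% (14.82 to 15.06) and 17.23% (17.15 to 17.32). Rods followed with 5.16% (5.14 to 5.18) and 6.05% (6.03 to 6.06), and bipolar cells, the interneurons that receive photoreceptor input, with 4.85% (4.84 to 4.87) and 5.14% (5.12 to 5.17). Cones stood at 3.58% (3.55 to 3.62) and 3.59% (3.57 to 3.61). Müller barcodes had 2.61% (2.59 to 2.64) and 3.34% (3.31 to 3.37), and amacrine cells, the inhibitory interneurons, had the lowest share, 2.41% (2.39 to 2.43) and 2.60% (2.57 to 2.64). The order of the 6 summed shares was the same in both libraries. It was not the same for a typical barcode: the median barcode share was higher in bipolar cells, 4.66% and 5.01%, than in rods, 3.97% and 4.21%. With each barcode thinned to 1000 UMIs, the MullerControl library had 3.76% in Müller barcodes and 3.50% in cones, the opposite of their unthinned order. Malat1 shares differed too, with medians of 13.01% and 8.42% in amacrine, 11.9% and 8.57% in Müller and 5.68% and 6.55% in cone barcodes. Medians were 5.47% and 4.37% in bipolar, 5.41% and 3.94% in rod and 1.74% and 1.46% in microglia barcodes. What Malat1 share contributed to the order of the classes was not tested.

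**Figure D1:**
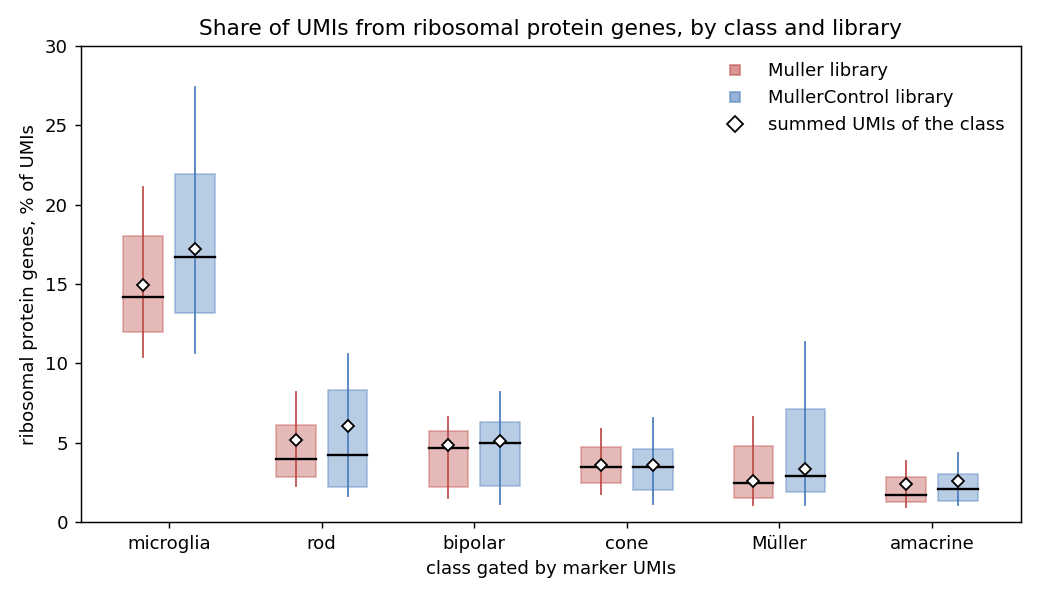
Share of a barcode's UMIs that came from the 86 ribosomal protein genes (y axis, percent), for 6 marker-gated classes (x axis) in the Muller (red) and MullerControl (blue) libraries; boxes span the 25th to 75th percentiles of the barcodes, the black line is the median, whiskers reach the 10th and 90th percentiles and diamonds give the share of the summed UMIs. Microglia sit above every other class, with medians of 14.2% and 16.7%, and Müller barcodes spread upward from medians of 2.47% and 2.91%.

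Most members shared the ends of this order, microglia and amacrine barcodes. Of the 83 members with at least 100 UMIs, 82 were highest in microglia, 71 were lowest in amacrine and 8 in Müller barcodes. The same ranks were not counted over all genes, so these counts have no background beside them. Between the lowest and the highest class, CPM differed by a median of 2.66 on the log2 scale, from 0.98 for Rps19bp1 to 3.62 for Rps9. With the libraries averaged, Rps19bp1 was the exception that was highest in cones (79.2 and 57.9 CPM) and lowest in microglia (22.3 and 43.6 CPM). In the MullerControl library alone it was highest in rods, at 63.2 CPM, and lowest in amacrine barcodes, at 36.3 CPM. In microglia against rods, 78 of 83 members in the Muller library and 79 of 83 in the MullerControl library were at least 1.5-fold higher, where 25.9% and 27.1% of all measured genes were. In Müller barcodes against rods, 71 of 83 and 63 of 83 members were at least 1.5-fold lower, against 23.5% and 24.6% of all genes. In amacrine against bipolar barcodes, 78 of 83 and 76 of 83 were lower by that measure, against 15.8% and 17.2% of all genes. These classes shared libraries and differed in depth. Median UMIs were 1454.5 and 1813 in Müller, 1084 and 1398 in rod and 3370 and 4048 in bipolar barcodes. They were 2653 and 3505.5 in amacrine and 3650 and 5005.5 in microglia barcodes. Within ranges of Malat1 share, Müller barcodes were not below rods throughout. With under 1% Malat1, ribosomal protein shares were 6.02% and 8.87% in Müller and 7.27% and 8.73% in rod barcodes. With 1 to 5% they were 5.52% and 6.54% against 4.98% in each library. With 5 to 15% they were 2.54% and 2.53% against 3.19% and 2.62%. With 15% or more they were 1.59% and 1.85% against 2.55% and 1.96%.

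The widest ranges belonged to Rps9, Rps12, Rplp0, Rpl39, Rpl12, Rpl10, Rplp1 and Rpl32. Rps9, a small-subunit protein, stood at 3810 and 4116 CPM in microglia, 672 and 710 CPM in rods, 396 and 519 CPM in Müller and 301 and 342 CPM in amacrine barcodes. Rplp0, the base of the stalk, stood at 2164 and 2146 CPM in microglia but at 228 and 316 CPM in Müller barcodes and 179 and 194 CPM in amacrine barcodes. Both genes were therefore high in microglia beyond the shift of the family as a whole, since Rps9 made up 2.55% and 2.39% of the ribosomal protein UMIs of microglia and 1.17% to 1.55% of those in the other classes. Rplp0 made up 1.45% and 1.25% in microglia, 0.872% and 0.946% in Müller barcodes and 0.482% and 0.551% in rods.

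A few members went against this order within the family. Rpl9, of the large subunit, made up 3.52% and 3.34% in rods, 3.26% and 2.65% in amacrine and 1.82% and 1.65% in microglia barcodes. Rpl22l1, the paralog of the RNA-binding protein Rpl22, took its largest part in amacrine barcodes, 0.682% and 0.667%, and its smallest in microglia, 0.130% and 0.163%. Rps27l and Rpl7l1 took their largest part in Müller barcodes. Rps27l, a paralog of Rps27 known as a p53 target, made up 0.208% and 0.211% of ribosomal protein UMIs there and 0.041% to 0.129% in the other classes. Rpl7l1 made up 0.269% and 0.193% in Müller barcodes and 0.0569% to 0.159% elsewhere. Each of these values was of the same order in both libraries, so the make-up of the family differed between classes alike in the 2 libraries.

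**Figure D2:**
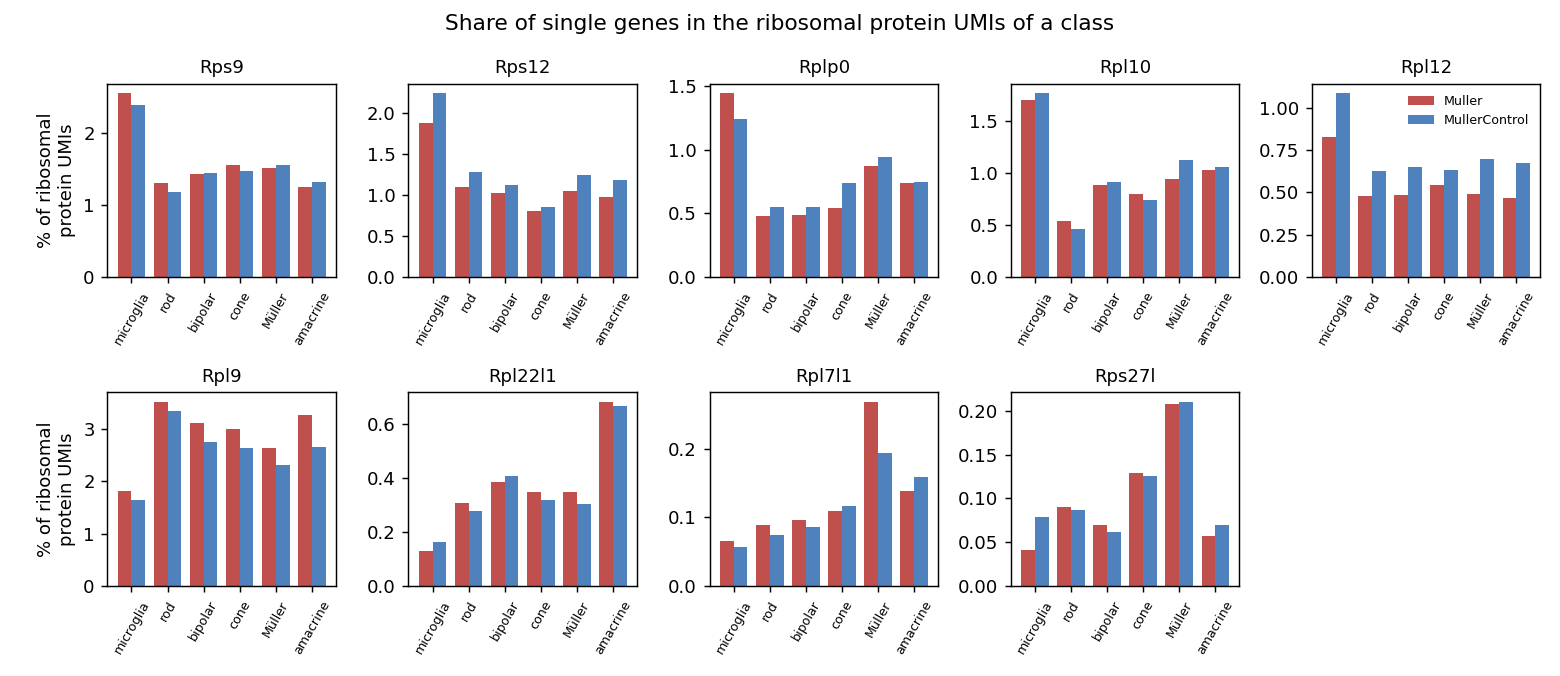
Percent of the ribosomal protein UMIs of each class (x axis) that came from a single gene (y axis, own scale per panel, starting at 0), for 9 members in the Muller (red) and MullerControl (blue) libraries. Rps9, Rps12, Rplp0, Rpl10 and Rpl12 take their largest part in microglia, Rpl9 in rods, Rpl22l1 in amacrine and Rpl7l1 and Rps27l in Müller barcodes, in both libraries.

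Between the libraries, ribosomal protein genes were lower in the Muller library in Müller barcodes. They took 51379 of 1965434 UMIs in Muller and 57000 of 1707581 UMIs in MullerControl, 0.783 times the control share, a log2 ratio of -0.35 (-0.37 to -0.34). Of 83 measured members, meaning those with 20 or more UMIs in the class when the libraries are added, 80 had a ratio below 0. At least 1.5-fold lower were 14, 6.11% of all measured genes being so, and none was 1.5-fold higher, against 6.76% of all genes. The median ratio was -0.34 over members and -0.03 over all 10991 measured genes. Large-subunit proteins made up 55.2% of ribosomal protein UMIs in each library and small-subunit proteins 41.4% and 41.0%, so the subunits were lower together. With barcodes thinned to 1000 UMIs, which left out 397 and 194 shallower Müller barcodes, the log2 ratio was -0.76, and 60 members were at least 1.5-fold lower, against 13.5% of all genes measured after thinning. The libraries' Müller barcodes also differed in their Malat1 content, given further below, and without the shared barcode sequences the ratio was -0.35.

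Among members with at least 100 UMIs in Müller barcodes the lowest ratio was that of Rps27, a zinc-finger protein of the small subunit, which stood at 155 CPM in Muller and 307 CPM in MullerControl, a log2 ratio of -0.99 (-1.19 to -0.78). Rps19, a small-subunit protein whose human counterpart is mutated in Diamond-Blackfan anaemia, stood at 137 and 254 CPM, a log2 ratio of -0.89 (-1.11 to -0.67). Rpl12, at the base of the stalk, stood at 128 and 233 CPM, a log2 ratio of -0.86 (-1.09 to -0.63). Rpl17 (249 and 440 CPM) and Rpl26 (144 and 252 CPM), both at the exit of the peptide tunnel, had log2 ratios of -0.82 and -0.80. Rplp1, an acidic stalk protein, stood at 435 and 719 CPM and Rps29, another zinc-binding protein of the small subunit, at 245 and 404 CPM. These 7 intervals lay wholly below 0, and Rpl7, at 355 and 584 CPM, did so too, with a log2 ratio of -0.72 (-0.86 to -0.58).

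Only 3 measured members had ratios above 0 in Müller barcodes, and each interval included 0. Rpsa stood at 394 and 360 CPM, a log2 ratio of 0.13 (-0.02 to 0.29). Rps19bp1, at 47.3 and 41.6 CPM, had 0.18 (-0.26 to 0.62), and Rpl7l1, at 70.2 and 64.4 CPM, had 0.12 (-0.24 to 0.48). Close to 0 were Rpl36al, the autosomal paralog of Rpl36a, at 140 and 141 CPM, Rps24 at 681 and 683 CPM, Rpl8 at 527 and 552 CPM, Rps2 at 413 and 444 CPM and Rpl18 at 495 and 538 CPM. For Rps24, the interval of the log2 ratio ran from -0.12 to 0.11. The members thus ranged over more than 1 log2 unit between Rps27 and Rpsa, beyond their counting intervals.

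In summed UMIs the same contrast was smaller in the other classes, whereas the ratio of median barcode shares was -0.24 in Müller, -0.25 in amacrine and -0.24 in microglia barcodes. In rods the log2 ratio of the share was -0.23 (-0.24 to -0.22), with 80 of 83 members below 0. In rods 6 members were at least 1.5-fold lower and none higher, against 2.33% and 13.3% of all genes. In microglia the ratio was -0.21 (-0.22 to -0.19), with 7 of 83 members 1.5-fold lower and none higher, against 8.49% and 11.6% of all genes. In amacrine barcodes it was -0.11 (-0.13 to -0.09), with 2 of 82 lower against 13.6% of all genes, and in bipolar barcodes -0.08 (-0.09 to -0.07), with 1 of 83 lower against 7.56%. In cones it was -0.002 (-0.02 to 0.02), with 44 of 83 members below 0 and 1 at least 1.5-fold lower, against 8.02% of all genes. The share of members called lower was thus near that of all genes in microglia and under it in amacrine, bipolar and cone barcodes. Members were not matched to all genes for UMIs, so the shares called are not like for like. Ratios were below 0 for 72 of 83 members in microglia, 65 of 83 in bipolar and 60 of 82 in amacrine barcodes. Medians over members there were -0.22, -0.12 and -0.14, against 0.06, -0.05 and -0.099 over all genes. The differences between classes were not tested.

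A set of members was low in the Muller library in the summed UMIs of every class, which mix barcodes of differing Malat1 share. Among rods, 81 of 83 members had ratios below 0 with under 1% Malat1 but 13 of 83 with 5 to 15%. Among bipolar barcodes, 54 of 79 did with under 1% and 19 of 83 with 5 to 15%. The counts that follow are of the class sums. Of 82 members measured in every class, 34 had ratios below 0 in all 6 classes (41.5%, against 5.35% of 5143 genes) and none had ratios above 0 in all 6 (against 5.39%). In 8 of the 82 members (9.76%, against 0.311% of the genes) all 6 counting intervals lay below 0; intervals are narrower for genes with more UMIs. These included Rps29, Rps19, Rps25, Rps23, Rpl17 and Rplp1, along with Rps18 and Rpl3, which were picked out after their values were seen. Rps29 had 457 and 758 CPM in rods, 1844 and 3175 CPM in microglia, 417 and 627 CPM in bipolar, 187 and 341 CPM in amacrine and 305 and 374 CPM in cone barcodes. Its log2 ratio ranged from -0.87 in amacrine to -0.29 in cone barcodes. Rps25, a small-subunit protein known for its part in initiation at internal ribosome entry sites, stood at 415 and 649 CPM in rods (log2 ratio -0.64) and at 925 and 1416 CPM in microglia (-0.61). Rps19 had -0.75 in rods and -0.61 in microglia, and Rpl12 had -0.62 and -0.60.

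Other members were level or higher in the Muller library outside Müller barcodes. Of the 82 members, 19 (23.2%) had an interval above 0 in at least 1 class, against 39.1% of all genes, and 8 (9.76%) in at least 2 classes, against 14.8%. Rpl18, a large-subunit protein, was 1 of 4 members with such intervals in 3 classes (4.88%, against 6.22% of all genes): it stood at 542 and 509 CPM in rods (0.09), 671 and 590 CPM in bipolar (0.19) and 463 and 396 CPM in cone barcodes (0.23). Rps24 stood at 1716 and 1535 CPM in bipolar barcodes (log2 ratio 0.16) and 1444 and 1545 CPM in rods (-0.10). Rps2 stood at 767 and 665 CPM in bipolar barcodes, a log2 ratio of 0.20 (0.13 to 0.28). These differences were small, under 1.5-fold in each class named.

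**Figure D3:**
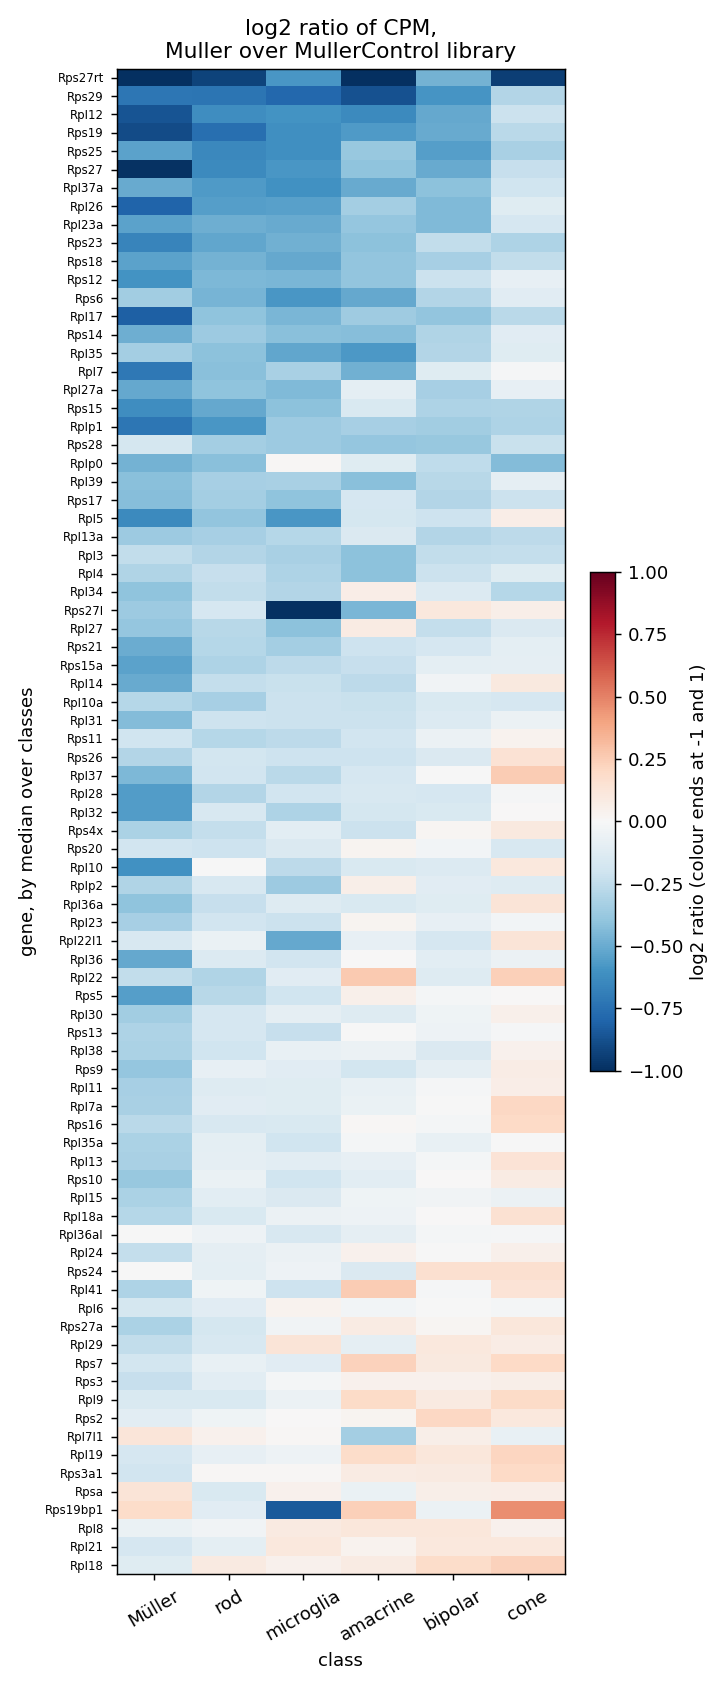
Log2 ratio of CPM, Muller over MullerControl library (colour, blue lower and red higher in Muller, ends at -1 and 1), for 82 of the 83 members with at least 100 UMIs in the gated classes (rows, by their median over classes) in 6 classes (columns). The Müller column is blue in all but 3 rows, the cone column is mixed, and the upper rows, from Rps27rt, Rps29, Rpl12 and Rps19 on, are blue in all 6 columns.

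Within Müller barcodes the ribosomal protein share went down with Malat1 share in both libraries. In the MullerControl library few barcodes had 1 to 5% Malat1 UMIs, whereas in the Muller library this range held more barcodes than the range under 1%. In the Muller library the share of summed UMIs was 6.02% (5.90 to 6.13) in 180 barcodes with under 1% Malat1, 5.52% in 234 barcodes with 1 to 5%, 2.54% in 197 barcodes with 5 to 15%, and 1.59% in 417 barcodes with 15% or more. In the MullerControl library it was 8.87% in 247 barcodes with under 1%, 6.54% in only 22 barcodes with 1 to 5%, 2.53% in 235 barcodes with 5 to 15%, and 1.85% in 131 barcodes with 15% or more. The highest range lay below the lowest by a log2 ratio of -1.92 (-1.96 to -1.88) in Muller and -2.26 (-2.30 to -2.23) in the MullerControl library, 0.264 and 0.208 times its share. Malat1 itself took 22.2% and 19.1% of the UMIs of the highest range, which lowers every other share of the same total. With Malat1 and mitochondrial transcripts left out of the totals, the shares of the lowest and highest ranges were 6.33% and 2.08% in Muller and 9.51% and 2.30% in the MullerControl library.

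**Figure D4:**
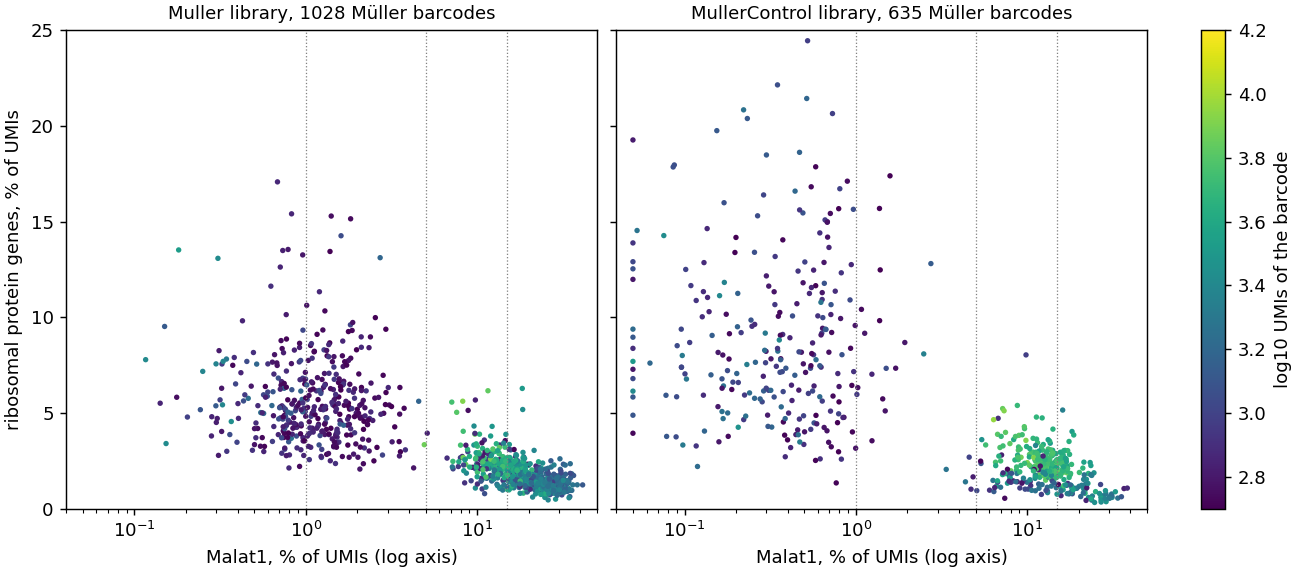
Share of UMIs from ribosomal protein genes (y axis, percent) against the share from Malat1 (x axis, percent, log scale, values under 0.05 drawn at 0.05) for each Müller barcode, coloured by log10 of its UMIs; dotted lines mark Malat1 shares of 1%, 5% and 15%. Barcodes below 5% Malat1 spread widely in ribosomal protein share at few UMIs, and those above 5% lie low, at more UMIs.

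In Müller barcodes with under 5% Malat1 the measures were nearly unrelated: over 414 and 269 barcodes, Spearman's rho was -0.08 and -0.05. Over 614 and 366 barcodes with 5% or more it was -0.64 and -0.38. These are descriptions over barcodes that share a library and a total, and no p-value was computed. Depth and other contents moved along: the median UMIs were 744 and 883 with under 1% Malat1, 608 and 622 with 1 to 5%, 3781 and 4799 with 5 to 15% and 2108 and 3279 with 15% or more. Mitochondrial transcripts took 4.27% and 6.33% of the UMIs in the lowest and 1.22% and 0.722% in the highest range, and the median share of rod markers was 1.11% and 0.702% in the lowest and 0.417% and 0.214% in the highest. Their part in the ribosomal protein share was not tested. In number of transcripts rather than share, the median barcode held 43 and 75 ribosomal protein UMIs with under 1% Malat1, 84 and 113 with 5 to 15%, and 27 and 38 with 15% or more.

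The decline with Malat1 ran through nearly all measured members. Of 82 members measured in each library, 82 in Muller and 81 in MullerControl were at least 1.5-fold lower in the highest than in the lowest Malat1 range, where 32.7% and 28.1% of all measured genes were. The median log2 ratio was -1.90 and -2.26 over members and -0.05 and 0.20 over all genes. The largest declines were those of Rpl39, a small protein at the tunnel exit, which stood at 475 CPM in the lowest and 77.5 CPM in the highest range of the Muller library, and at 627 and 95.9 CPM in the MullerControl library. Rpl36 stood at 499 and 109 CPM and at 782 and 119 CPM in the same order. Rps4x, the X-linked small-subunit protein, stood at 1095 and 209 CPM and at 1377 and 260 CPM, a log2 ratio of -2.39 and -2.40. Rpl23 (-2.15 and -2.64) and Rpl26 (-2.26 and -2.51) were the next.

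The smallest decline was that of Rpl7l1, which stood at 90.3 CPM in the lowest and 57.8 CPM in the highest range of the Muller library and at 63.5 and 54.8 CPM in the MullerControl library. Its log2 ratios of -0.71 (-1.51 to 0.09) and -0.24 (-1.13 to 0.65) rest on 15 to 56 UMIs per range and include 0, so a difference was not detectable at this depth. Rpl22l1 had ratios of -1.33 (-1.93 to -0.72) and -1.18 (-1.81 to -0.56), Rps28 -1.62 and -1.57, Rpl15 -1.60 and -1.66 and Rpl10a -1.60 and -1.95. The stalk genes lay with the bulk: Rplp0 had ratios of -2.41 and -2.29, Rplp1 -1.98 and -2.20 and Rplp2 -2.00 and -2.28. The same split in rods gave a log2 ratio of -1.51 in Muller and -2.15 in the MullerControl library, with 79 of 83 members at least 1.5-fold lower in each, against 14.2% and 13.9% of all genes. In rods of the Muller library 1 member was 1.5-fold higher, against 55% of all genes. In bipolar barcodes of the Muller library it was -2.58, with 79 of 79 measured members lower, against 41.7% of all genes.

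**Figure D5:**
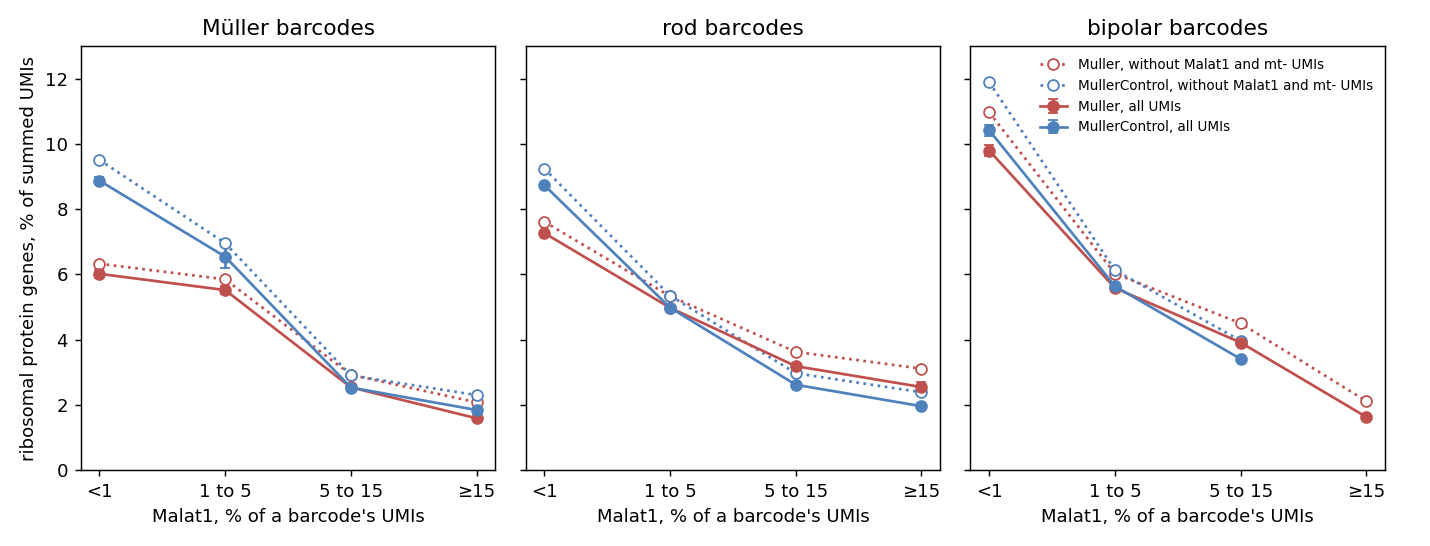
Ribosomal protein genes in percent of summed UMIs (y axis) by range of Malat1 share (x axis) for Müller, rod and bipolar barcodes in the Muller (red) and MullerControl (blue) libraries; filled points use all UMIs with 95% binomial intervals, and open points leave Malat1 and mitochondrial UMIs out of the total. Müller barcodes go from 6.02% to 1.59% and from 8.87% to 1.85%, and the libraries lie apart at low Malat1 and together at 5 to 15%, with 2.54% and 2.53%. Bipolar barcodes of the MullerControl library with 15% or more Malat1 were too few to be drawn.

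The libraries differed in how Müller barcodes spread over these ranges. Under 1% Malat1 lay 17.5% of the Muller and 38.9% of the MullerControl Müller barcodes, and at 15% or more lay 40.6% and 20.6%. Within a range, the contrast of Muller over MullerControl was not uniform. With under 1% Malat1 the log2 ratio of the ribosomal protein share was -0.56 (-0.59 to -0.53), and 41 of 82 members were at least 1.5-fold lower, against 10.5% of all genes. With 5 to 15% it was 0.00 (-0.02 to 0.03), and 1 of 82 members was lower, against 8.57%. With 15% or more it was -0.21 (-0.25 to -0.18), with 11 of 82 lower, against 12.6%. With 1 to 5% it was -0.25 (-0.33 to -0.16), where the control side held 22 barcodes, and 20 of 80 members were lower and 7 higher, against 28.6% and 18.8% of all genes. The Müller barcodes with 5 to 15% Malat1, which were the deepest, thus had a ratio near 0, and those on either side had ratios below 0.

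Rods went the other way at high Malat1. With under 1% Malat1, rods had 7.27% and 8.73%, a log2 ratio of -0.27 (-0.27 to -0.26), and with 1 to 5% they had 4.98% in each library. With 5 to 15% they had 3.19% and 2.62%, a ratio of 0.28 (0.27 to 0.30), and with 15% or more, in 57 and 115 barcodes, 2.55% and 1.96%, a ratio of 0.38 (0.28 to 0.48). Bipolar barcodes had ratios of -0.09 (-0.12 to -0.05) under 1%, -0.01 from 1 to 5% and 0.20 (0.18 to 0.22) from 5 to 15%. The lower total in rods of the Muller library was therefore not present in each range, and 46.2% of control rods but 32.4% of Muller rods had under 1% Malat1.

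The stalk and the paralogs were followed separately. Rplp0, Rplp1 and Rplp2 together made up 3.35% and 3.89% of ribosomal protein UMIs in Müller, 3.61% and 4.26% in rod and 4.95% and 5.15% in microglia barcodes. In Müller barcodes Rplp0 stood at 228 and 316 CPM, a log2 ratio of -0.47 (-0.65 to -0.29), and Rplp2 at 213 and 262 CPM, a log2 ratio of -0.30 (-0.49 to -0.11), beside -0.73 for Rplp1. Rplp0 was also low in the Muller library in cones, with 196 and 266 CPM (-0.44), and level in microglia, with 0.01 (-0.11 to 0.14). Rps4x stood at 366 and 456 CPM in Müller barcodes, a log2 ratio of -0.32, and at 854 and 841 CPM in bipolar barcodes. Xist, which lies on the same chromosome and is transcribed from the inactive X, stood at 815 and 271 CPM in Müller barcodes. It was higher in the Muller library in the other classes too. There it stood at 265 and 91.1 CPM in rods, 658 and 152 in cones, 1227 and 560 in bipolar, 1417 and 473 in amacrine and 290 and 120 in microglia barcodes. The libraries thus differed in an X-linked RNA in every class. What this difference contributed to Rps4x or to the other contrasts between libraries was not tested.

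Among the paralogs, Rps27l stood at 54.4 and 70.3 CPM in Müller barcodes, a log2 ratio of -0.37 (-0.74 to 0.01), and at 61.3 and 135 CPM in microglia, -1.09 (-1.74 to -0.43), the lowest ratio of any member in that class. Its aligned identity to Rps27 was 76.4% over 254 bases of transcript. Rpl22l1, with 74.2% identity to Rpl22, stood at 90.6 and 101 CPM in Müller barcodes (-0.16, -0.46 to 0.14) while Rpl22 stood at 190 and 226 CPM (-0.25, -0.45 to -0.04). Rpl3l and Rpl10l, which are known from striated muscle and from testis, had no UMI in Müller barcodes, and Rpl39l had 2 and 0.

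Some members share almost all of their sequence with another annotated gene, so that their counts are uncertain. Rps27rt, a retrotransposed copy on chromosome 9 (114982366-114982739, minus strand), was identical to Rps27 over 341 aligned bases. Over all barcodes Rps27rt had 234 and 431 UMIs beside 5640 and 8664 for Rps27. In Müller barcodes it stood at 6.11 and 14.6 CPM from 12 and 25 UMIs, a log2 ratio of -1.20 (-2.16 to -0.24), and its ratio, like that of Rps27, was below 0 in all 6 classes. Rpl9-ps6 (99.9% identical to Rpl9 over 692 bases) had 560 and 600 UMIs beside 34270 and 36082 for Rpl9, and Rpl10-ps3 (100% over 740 bases) had 286 and 263 beside 9446 and 9827 for Rpl10. Reads that fit a gene and its copy equally well cannot be assigned from these tables, so the values of Rps27, Rpl9 and Rpl10 are uncertain to that extent.

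Over the 83 measured members in Müller barcodes, the log2 ratio between libraries had a Pearson r of 0.36 with the log10 length of the reference transcript. Spearman's rho was 0.30, so members with shorter reference transcripts tended to be lower in the Muller library. With transcript GC content r was 0.05. Over all measured genes with a length, r with log10 length was 0.09. In the other classes, r of the members with log10 length ran from 0.11 in amacrine to 0.32 in bipolar barcodes. Over all measured genes with a length, r in those classes ran from -0.14 in bipolar to 0.07 in rod barcodes. Reference lengths, such as 3706 bases for Rps20, need not be those of the messages in these cells. These are correlations over genes, which are not independent replicates, and they carry no test.

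Other genes of the translation machinery were read from lists of related genes. In the contrast of libraries in Müller barcodes, none of 32 initiation factors was 1.5-fold changed in either direction (median -0.11), where 6.76% of all genes were higher and 6.11% lower. The lists below had 0 to 2 genes called in a direction, too few to set any list apart from all genes. Of 6 elongation factors 1 was higher, Eef1a2, a form known from neurons and muscle, at 18.8 and 1.76 CPM from 37 and 3 UMIs, and none was lower (median -0.23). Eef1a1, the common form that brings tRNA to the ribosome, stood at 715 and 868 CPM, a log2 ratio of -0.28 (-0.38 to -0.17). Of 12 further TOP genes 1 was lower, Tpt1, at 503 and 772 CPM, a log2 ratio of -0.62 (-0.74 to -0.50), with a list median of -0.25. Fau stood at 630 and 766 CPM (-0.28). Of 20 ribosome biogenesis genes 2 were higher, among them Rrs1 at 34.6 and 21.1 CPM (0.70), and none lower. Of 12 genes that host small nucleolar RNAs, 2 were lower, among them Snhg8 at 42.2 and 70.3 CPM (-0.73). Of 78 mitochondrial ribosomal protein genes 1 was higher and 1 lower (median -0.03), and of 14 mTORC1 signalling genes none was changed by that measure (median -0.04). Medians of these lists thus ran from -0.25 for the TOP genes and -0.23 for the elongation factors to -0.03 for the mitochondrial ribosome. Between them lay the small nucleolar RNA hosts at -0.17, ribosome biogenesis at -0.12, initiation factors at -0.11 and mTORC1 signalling at -0.04. The median of all genes was -0.03.

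Between high and low Malat1 in Müller barcodes the medians of these lists differed more widely. All 12 further TOP genes were at least 1.5-fold lower at high Malat1 in each library, with medians of -1.77 and -1.60, where 32.7% and 28.1% of all genes were lower, and so were 6 of 6 and 5 of 5 measured elongation factors, with medians of -1.44 and -1.48. Eef1a1 stood at 1721 CPM in the lowest and 438 CPM in the highest range of the Muller library and at 2457 and 445 CPM in the MullerControl library. Of the initiation factors 25 of 32 and 19 of 30 were lower, with medians of -0.82 and -0.87, and of the mitochondrial ribosomal protein genes 61 of 73 and 46 of 59, with medians of -1.32 and -1.07. Of the transcripts made in mitochondria 11 of 11 and 12 of 12 were lower, with medians of -1.83 and -3.17. Of 6 and 5 measured nuclear RNAs, a list that includes Malat1 itself, 5 and 5 were higher, with medians of 3.59 and 4.33, where 30.8% and 38.5% of all genes were higher. The mTORC1 signalling genes were mixed, with 5 lower and 5 higher of 12 in Muller and 1 lower and 4 higher of 6 in MullerControl.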

How the data were processed

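The authors deposited raw UMI counts for each gene and barcode, with no normalization applied, and per the file headers the writer was Cell Ranger 4.0.0. Seurat 4.0.5 and the builds mm10 and GRCh38 are named, without a role, per the submitters' processing notes. The deposited barcodes all had at least 500 UMIs. No deposited feature is named for tdTomato or the vector, so those transcripts were not analysed here.

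A barcode needed 300 or more genes and no more than 20% mitochondrial UMIs, and 429 and 905 failed this. Scrublet (scanpy 1.11.5) scored doublets. Its automatic threshold called 2 and 0, so it had not worked, and the highest scores were removed instead, 0.8% for each 1000 barcodes, 1130 (9.51%) and 866 (8.32%). Gates on the share of marker UMIs (Müller 1%, rod 3%, cone 1%, bipolar 0.6%, amacrine 0.2%, microglia 1%), with at least 3 marker UMIs and no other gate passed, were set after the data were seen.

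UMIs were summed by library and class and given as CPM, with exact Poisson intervals, or as shares with exact binomial (Clopper-Pearson) intervals, at 95%. Log2 ratios had 1 count added to each sum, with an approximate 95% counting interval. A gene needed 20 or more UMIs in the 2 sums together to count as measured, and was called at 1.5-fold. The calculation was tested on simulated counts. With 1 library per group no p-value was computed. Named members were those with at least 100 UMIs and the 8 highest and 8 lowest ratios in Müller, the 3 highest and 3 lowest in each other class, the 5 highest and 5 lowest between Malat1 ranges (mean of libraries), the 8 widest over classes, the 5 with most UMIs, the stalk genes, Rpsa and paralogs, and of other lists up to 3. The members and lists were chosen with earlier results of these data known. Transcript lengths and identities came from GENCODE vM21 (GRCm38), start-site sequences from RefSeq. Alternatives were other filters, gates, denominators, thinning to 1000 UMIs and other thresholds. The tools were Python 3.11.15 with anndata 0.12.19, pandas 2.3.3, matplotlib 3.10.9, scipy 1.17.1 and numpy 2.4.6. Results for some genes are not reported here.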

Additional observations from a re-analysis of the deposited data

Results flagged for a closer look

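Several members had ratios of Muller over MullerControl of opposite sign in Müller barcodes and in another class, with counting intervals on either side of 0. The difference between classes was not tested, since each group had 1 library. In cones, Rpl13 had a log2 ratio of 0.14 against -0.32 in Müller barcodes, Rpl22 0.24 against -0.25, Rpl37 0.25 against -0.45, Rpl41 0.13 against -0.31, Rpl9 0.19 against -0.16, Rps27a 0.12 against -0.31 and Rps3a1 0.20 against -0.19. In bipolar barcodes, Rpl21 had 0.10 against -0.17, Rpl29 0.11 against -0.24, Rpl9 0.091 against -0.16 and Rps3a1 0.094 against -0.19. In amacrine barcodes, Rpl41 had 0.26 and Rpl9 0.19, and in microglia Rpl21 had 0.11. Rpl9 was thus lower in Müller barcodes and higher in cone, bipolar and amacrine barcodes. In rods and microglia its ratio was below 0 as well, so the neuronal classes did not all go the same way.

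Annotated copies outside the member list held UMIs in both libraries, above the 3 UMIs that a count of 0 allows. Rpl9-ps6 had 560 and 600 UMIs over all barcodes, Rpl10-ps3 286 and 263, and Rpl36a-ps1, 98.4% identical to Rpl36a over 438 bases, 38 and 54.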

How the results depend on the processing

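No paired analysis was possible because each group had 1 library and no result came from a test. All values are ratios of Muller over MullerControl on the log2 scale unless stated, and the cause of each shift was not tested. The share in Müller barcodes (-0.35) was -0.37 with all deposited barcodes, -0.30 without Malat1 and mitochondrial UMIs in the totals, -0.38 with a stricter gate, -0.76 thinned to 1000 UMIs, -0.24 as the median barcode, and -0.56 and -0.21 with Malat1 under 1% and of 15% or more, a split added after the data were seen. Rods (-0.23) had -0.22 with all barcodes, -0.20 with the stricter gate, -0.16 thinned, -0.24 without rod markers in the totals, -0.084 as the median barcode, -0.27 with Malat1 under 1% and, in the opposite direction, 0.38 with 15% or more. Cones (-0.002) had 0.035 with the stricter gate, 0.042 thinned and -0.21 with Malat1 under 1%. Bipolar barcodes (-0.08) had -0.13 with all barcodes, -0.10 with the stricter gate, -0.17 thinned and -0.10 as the median barcode. Amacrine barcodes (-0.11) had -0.078 with all barcodes, -0.077 without doublet removal, -0.053 without Malat1 and mitochondrial UMIs, -0.014 with the stricter gate, -0.19 thinned and -0.25 as the median barcode. Microglia (-0.21) had -0.25 with all barcodes, -0.24 without doublet removal, -0.22 thinned, -0.24 as the median barcode and -0.25 with Malat1 under 1%.

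The number of members at least 1.5-fold lower in Müller barcodes (14) was 60 thinned, with a median ratio of -0.82 in place of -0.34, and 1 at a fold of 2. In rods (6) it was 0 at a fold of 2. In cones (1) it was 0 with the stricter gate, thinned, with at least 100 UMIs and at a fold of 2, and 2 with no minimum of UMIs. In bipolar barcodes (1) it was 3 with all barcodes, 0 without doublet removal, 5 thinned, 2 with no minimum and 0 at a fold of 2. In amacrine barcodes (2) it was 1 without Malat1 and mitochondrial UMIs, 1 with the stricter gate, 9 thinned, 4 with no minimum and 0 at a fold of 2. In microglia (7) it was 12 with all barcodes, 13 without doublet removal, 11 thinned and 1 at a fold of 2. With no minimum of UMIs, 1 member was higher in Müller barcodes and 1 in microglia.

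The ratio of high over low Malat1 in the Muller library (-1.92) was -1.61 without Malat1 and mitochondrial UMIs, -1.85 with the stricter gate, -2.03 by quartiles of Malat1 share and -1.51 in rods, where 1 member was higher. In the MullerControl library (-2.26) it was -2.20 with all barcodes, -2.23 without doublet removal, -2.05 without Malat1 and mitochondrial UMIs, -2.19 with the stricter gate, -2.43 thinned, -2.69 by quartiles and -2.15 in rods. Leaving out the 40 shared barcode sequences moved no summary beyond its counting interval. Of the alternative values for these summaries and counts, 151 stayed within the counting interval or 1.5 times the count, 68 did not and 1 reversed. Depth limits the paralogs and Rps27rt, which have few UMIs, and no variation between mice, injections or sorts can be seen.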
